A study of Homo sapiens with 8 samples.

Results

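The chromatin around 8 interferon regulatory factor genes, IRF1, IRF2, IRF3, IRF4, IRF5, IRF7, IRF8 and IRF9, was followed in U-937 cells under 4 treatments. Every peak that overlapped a gene body or the 50 kb on either side of it was taken, with gene bodies from GENCODE on the human genome build hg38. Peaks of the 4 lists that overlapped were joined into regions, and 161 of 161291 regions (1034 of 832045 peaks) fell in the 8 windows. U-937 is an established human monocytic line, labelled as acute myeloid leukaemia. The assay was ATAC-seq, in which a transposase inserts sequencing adapters into accessible DNA. The 8 samples, 2 per group, had 24 h of DMSO (the vehicle), of ATRA at 0.1 µM, of Corin at 0.1 µM, or of both compounds at 0.1 µM each, named the combination here. ATRA, all-trans retinoic acid, activates the retinoic acid receptors, and Corin is a dual inhibitor of the demethylase LSD1 and the histone deacetylases within the CoREST co-repressor complex. Each group came with 1 list of peaks in which its 2 samples were merged, so the values carry no spread between samples and treatments could not be tested against each other.

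Interferon regulatory factors are DNA-binding proteins that read the interferon-stimulated response element. IRF1 is an activator of interferon-induced genes and IRF2 is best known as its antagonist. IRF3 and IRF7 are phosphorylated after sensing of foreign nucleic acids and switch on type I interferon genes, and IRF5 drives inflammatory cytokine genes downstream of Toll-like receptors. IRF9 is the DNA-binding subunit of the factor ISGF3, which carries the type I interferon signal to its target genes. IRF4 and IRF8 bind mostly with partners such as PU.1, IRF4 chiefly in lymphoid cells and macrophages, and IRF8 as a determinant of the monocyte and dendritic cell fate.

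Open chromatin lay over the main start sites of IRF1, IRF2, IRF3, IRF5, IRF7 and IRF9 in each of the 4 lists. The sequences of 2 of these promoters, of IRF1 and IRF9, are shown as examples with a GAS element, the interferon gamma-activated site (TTCNNNGAA), which is printed in capitals. A match was not particular to these 2, as the IRF2 promoter window, for example, held one as well. The window is the 200 bp around the strongest summit, on the strand of the gene and 5′ to 3′, of which the 86 bases upstream of the gene are shown for IRF9.
IRF1 −0.1 kb, chr5:132490817-132491016, minus strand: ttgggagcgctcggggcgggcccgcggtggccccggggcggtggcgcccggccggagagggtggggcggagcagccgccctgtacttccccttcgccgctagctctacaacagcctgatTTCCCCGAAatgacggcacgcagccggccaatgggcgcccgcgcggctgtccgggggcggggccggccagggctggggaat
IRF9 start, chr14:24161148-24161233, plus strand: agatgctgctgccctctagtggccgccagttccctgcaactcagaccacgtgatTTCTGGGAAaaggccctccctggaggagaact

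The largest differences between the lists lay away from the IRF promoters. The summit windows of 5 regions near IRF2 and IRF8 are shown as examples, and some regions not shown differed as much or more. Capitals mark the ETS-IRF composite element (GGAANNGAA, read on either strand) in the IRF2 −36.1 kb window and the core of the interferon-stimulated response element (GAAANNGAA, either strand) in both IRF8 windows. The other 2 IRF2 windows held none of the 9 motifs searched. Distances count from the start of the MANE Select transcript, the reference transcript of a gene, and are positive in the direction of transcription.
IRF2 +13.4 kb, chr4:184461004-184461203, minus strand: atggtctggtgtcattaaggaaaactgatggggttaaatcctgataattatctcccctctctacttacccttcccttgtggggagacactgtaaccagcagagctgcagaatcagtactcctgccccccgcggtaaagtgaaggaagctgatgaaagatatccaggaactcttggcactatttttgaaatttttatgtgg
IRF2 +110.2 kb, chr4:184364242-184364441, minus strand: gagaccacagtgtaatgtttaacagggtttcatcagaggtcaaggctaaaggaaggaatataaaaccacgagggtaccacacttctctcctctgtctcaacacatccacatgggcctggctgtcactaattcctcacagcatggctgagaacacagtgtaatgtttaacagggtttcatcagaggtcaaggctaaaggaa
IRF2 −36.1 kb, chr4:184510506-184510705, minus strand: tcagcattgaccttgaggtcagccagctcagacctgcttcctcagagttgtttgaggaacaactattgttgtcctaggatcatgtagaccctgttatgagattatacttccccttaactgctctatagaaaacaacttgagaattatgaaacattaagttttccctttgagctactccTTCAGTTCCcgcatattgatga
IRF8 −16.5 kb, chr16:85882605-85882804, plus strand: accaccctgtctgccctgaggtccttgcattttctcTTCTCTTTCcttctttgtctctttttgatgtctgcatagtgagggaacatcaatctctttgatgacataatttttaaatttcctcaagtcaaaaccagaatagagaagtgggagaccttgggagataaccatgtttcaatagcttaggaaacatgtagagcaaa
IRF8 −10.1 kb, chr16:85888915-85889114, plus strand: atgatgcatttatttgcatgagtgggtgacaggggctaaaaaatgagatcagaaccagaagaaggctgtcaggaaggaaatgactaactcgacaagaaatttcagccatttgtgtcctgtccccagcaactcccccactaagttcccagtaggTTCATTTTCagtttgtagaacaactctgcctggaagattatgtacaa

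The value compared is the fold of a peak over its local background, the highest of the peaks in a region, so the summit used can differ between lists. Its median over all regions was 5.15 in DMSO, 7.81 in ATRA, 5.16 in Corin and 6.16 in the combination, and over the IRF regions 4.76, 6.96, 4.23 and 6.26. Because a typical region was 1.26 times stronger in the ATRA list than in the DMSO list, log2 ratios between lists were centred on the median of all regions the 2 lists share. A region is called higher or lower past 1.5-fold after centring, and gained or lost when only the first or only the second list holds it. The pileup, the number of overlapping reads at the summit, ran from 24 to 3191 in the IRF regions and was solved from the fold and the p-value. Intervals given with a fold are exact 95% Poisson intervals of that pileup, which cover counting error only and treat reads as independent molecules. The fold also moves with the background beneath it, so a second log2 ratio was taken from the pileup divided by the most frequent background of its list, and is named the pileup ratio. Among the markers of blood and epithelial cells checked in DMSO, 8 of 10 myelomonocytic genes had an open promoter, CD14 and MPO being the exceptions, against 2 of 6 T cell, 4 of 5 B cell, 1 of 4 erythroid and 2 of 4 epithelial genes, and such a region can belong to a neighbour's start.

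IRF1, on chromosome 5 (132440440 to 132508719, minus strand), had the main promoter with the most even fold of the family before centring, though not after it. Its region at the MANE start had a fold of 12.1 (95% interval 11.4 to 12.9) in DMSO, 11.2 (10.5 to 12.0) in ATRA, 11.3 (10.6 to 12.1) in Corin and 11.5 (10.8 to 12.1) in the combination, and the 4 intervals overlapped. The summits of the 4 lists lay within 32 bp of each other at this promoter. After centring, the log2 ratios to DMSO were −0.44 (ATRA), −0.01 (Corin) and −0.10 (combination), and the pileup ratio of the combination had the other sign (0.06). A further start 5.2 kb upstream (IRF1 −5.2 kb) was open in every list too, with folds of 11.1, 9.76, 8.55 and 9.19 in the order DMSO, ATRA, Corin and combination, which is kept below.

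Of the 27 regions in the IRF1 window, 17 were in every list. None of the 19 DMSO regions was absent with ATRA (0.0%, against 25.4% over all regions). The ATRA list held 6 regions that DMSO lacked, of 25, a share close to the background (24.0%, against 23.3% over all regions). In 4 of these the combination shared the call and Corin did not, among them IRF1 +75.9 kb (fold 3.81 in ATRA and 4.24 in the combination) and IRF1 +2.6 kb, at an internal start (3.21 and 2.69). These were weak regions, IRF1 +2.6 kb being stronger than only 11.2% of the regions in the ATRA list. Among shared regions the centred ratio of ATRA to DMSO was below 0 in 15 of 19 IRF1 regions with a median of −0.44, whereas the pileup ratio was below 0 in 8 of 19 with a median of 0.13, so the direction of that median depends on the scaling. The lowest was IRF1 +79.7 kb, at 13.3 in DMSO, 8.16 in ATRA, 12.8 in Corin and 9.51 in the combination. Its centred log2 ratio was −1.04 with ATRA and the pileup ratio only −0.30. This region lies at a promoter of another coding gene, which has no symbol in GENCODE. The body of that gene also spans the IRF1 promoter, IRF1 +69.8 kb, IRF1 +62.8 kb and IRF1 −10.6 kb.

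In IRF1 +69.8 kb the fold was 4.13, 3.02, 5.52 and 2.48, and the combination stood at −1.25 on the log2 scale against Corin (pileup ratio −1.15). By fold the DMSO and Corin lists were the higher pair there. Their intervals (3.55 to 4.78 and 4.91 to 6.18) did not overlap those of the lists with ATRA (2.59 to 3.50 and 2.12 to 2.90). By reads only Corin stood apart, with 177, 174, 295 and 160 at the summit. The pileup ratios to DMSO were −0.13 (ATRA), 0.86 (Corin) and −0.30 (combination). Further upstream, in an intron of longer IRF1 transcripts, IRF1 −10.6 kb was highest in DMSO, at 5.94 (5.19 to 6.76). It was 4.63 in ATRA, 3.45 in Corin and 3.33 in the combination, with centred ratios of −0.69, −0.70 and −0.86, all below 0 in the pileup ratio too (−0.54, −0.42 and −0.27). IRF1 +62.8 kb was the lowest of all shared IRF regions with Corin, at 2.49 against 4.54 in DMSO (−0.78, pileup ratio −0.37), but not in the combination, where it was 5.16.

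IRF2, on chromosome 4 (184385702 to 184474558, minus strand), had the most regions, 31, and no other coding gene in its window. Its promoter was close to even, with folds of 9.82 (9.21 to 10.5), 8.69 (8.17 to 9.22), 8.58 (8.03 to 9.15) and 8.36 (7.89 to 8.85). The centred ratios to DMSO were −0.51, −0.11 and −0.26, and each changed sign in the pileup ratio (0.06, 0.08 and 0.16). Of its 26 regions in the ATRA list, DMSO lacked 8 (30.8%, against 23.3% over all regions). Of its 20 DMSO regions, ATRA left out 2 (10.0%, against 25.4%). The count of gained regions was the highest among the 8 genes, in the widest window, but the share was higher at IRF8 (7 of 19, 36.8%).

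The intronic IRF2 +13.4 kb region (chr4:184460625-184461475) had a fold of 3.99 (3.01 to 5.18) in DMSO, 16.6 (14.3 to 19.1) in ATRA and 6.09 (4.91 to 7.47) in the combination, and was not called in Corin. In reads the summits held 54, 195 and 90. ATRA stood apart from both other lists. The centred ratio was 1.72 for ATRA against DMSO, 0.58 for the combination against DMSO and −1.11 for the combination against ATRA, and the pileup ratios were close to these at 1.73, 0.57 and −1.10.

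Downstream of the gene, IRF2 +110.2 kb (chr4:184364060-184364876) was called only with ATRA, at 13.5 (11.4 to 16.0), and in the combination, at 3.82 (2.90 to 4.94). Of the IRF regions called in the ATRA and combination lists alone it had the highest −log10 p. The combination stood at −1.49 against ATRA (pileup ratio −1.26), so in both of these IRF2 regions the list with Corin added was lower than ATRA alone.

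Upstream, IRF2 −36.1 kb (chr4:184510171-184510766) had the highest ratio of all shared IRF regions with ATRA and with the combination. Its fold was 2.19 (1.80 to 2.66) in DMSO, 9.28 (8.50 to 10.1) in ATRA, 2.93 (2.45 to 3.48) in Corin and 6.17 (5.53 to 6.86) in the combination. The 2 lists with ATRA were the high pair, and their intervals did not reach those of the others. The centred ratios to DMSO were 1.75, 0.50 and 1.46, and the pileup ratios 2.20, 0.44 and 1.54. Reads at the summit numbered 104, 517, 129 and 339.

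A pair of neighbouring regions at the far end of the window had the same 2 lists as the high ones. IRF2 +128.8 kb had folds of 3.48, 6.48, 3.83 and 6.87, and IRF2 +127.6 kb of 1.71, 3.90, 1.74 and 3.23. Against DMSO the combination was at 0.95 and 0.89 in these (pileup ratios 1.41 and 1.35), and ATRA at 0.56 and 0.86 (1.41 and 1.71). Next to them IRF2 +127.1 kb was high in every list, at 12.7, 11.3, 9.46 and 9.93. IRF2 +130.6 kb, at 4.32, 3.02, 3.30 and 2.99, was among the lowest with ATRA (−0.85), but the pileup ratio was only −0.03.

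The highest Corin ratios in the IRF2 window were in regions where ATRA was above DMSO too. IRF2 +57.1 kb, in an intron, was 9.36 (8.20 to 10.7) in DMSO, 17.2 (15.7 to 18.8) in ATRA, 15.0 (13.7 to 16.5) in Corin and 11.4 (10.2 to 12.7) in the combination. Each compound alone was above the combination here, but the summits of the 4 lists lay up to 646 bp apart. Centred ratios to DMSO were 0.54, 0.77 and 0.26, with pileup ratios of 0.89, 1.09 and 0.34. IRF2 +90.3 kb was above DMSO in all 3 treatments, at 6.01, 11.2, 9.47 and 9.77 (0.56, 0.74 and 0.67, pileup ratios 0.59, 1.18 and 0.80). Its summits lay up to 226 bp apart.

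Outside the naming rule, and picked after its values were seen, IRF2 +138.8 kb was missing in DMSO and had folds of 2.87 in ATRA, 2.69 in Corin and 7.03 in the combination. The combination was thus above both single compounds, by 1.63 and 1.29 (pileup ratios 1.86 and 1.19). A call with a peak in DMSO (4.93) and Corin (5.45) and none in the 2 lists with ATRA was strongest at IRF2 +98.8 kb. IRF2 −7.7 kb was in the DMSO (4.76) and ATRA (5.05) lists alone. The strongest region in the gene body, IRF2 +21.0 kb, differed little, at 14.5, 17.5, 15.3 and 18.3, with centred ratios of −0.06, 0.16 and 0.31, though its ATRA pileup ratio was 0.71.

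**Figure D1:**
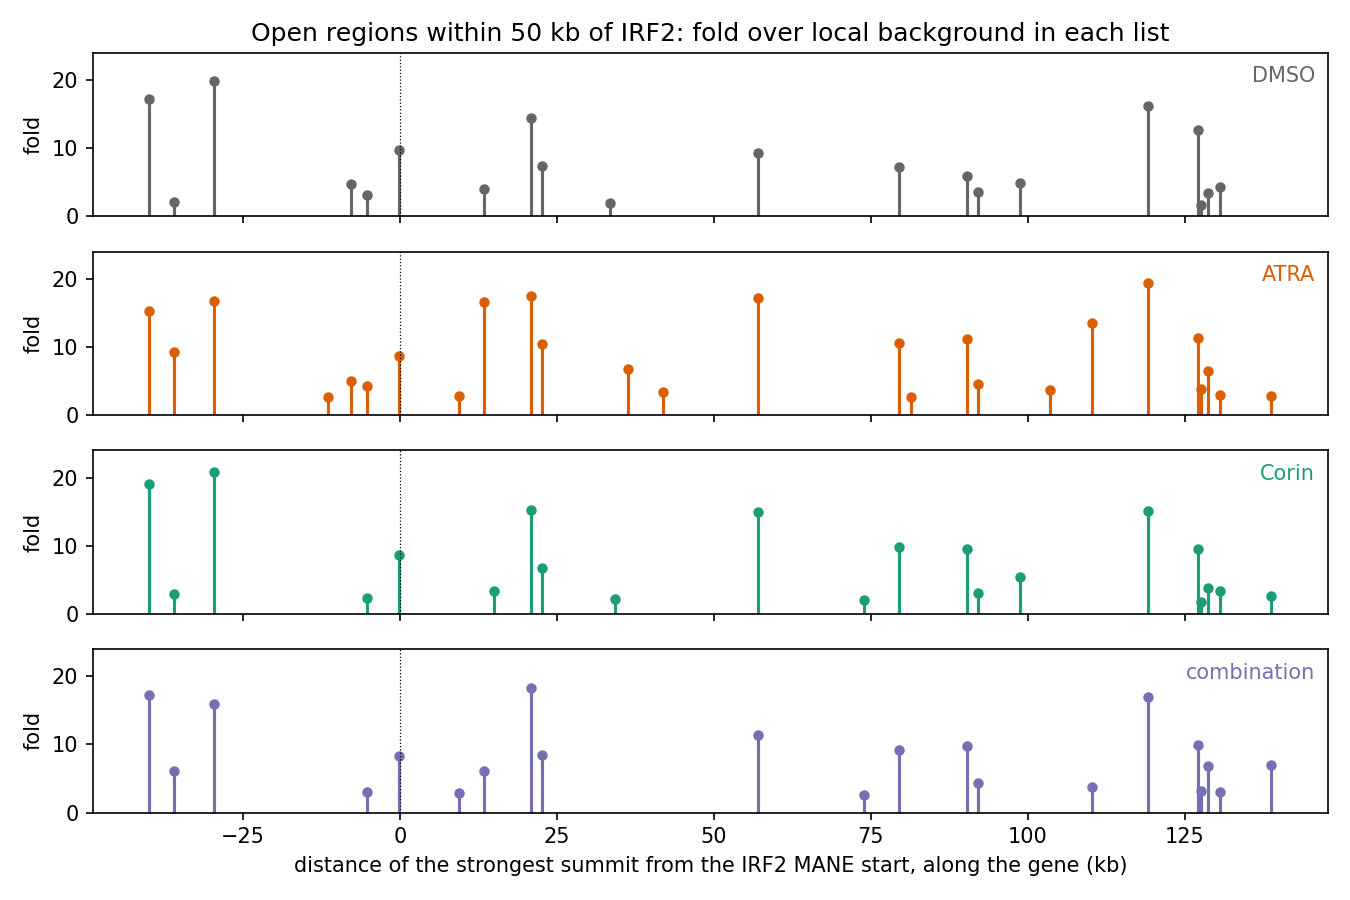
Fold over local background (vertical axis, no unit) of each region within 50 kb of IRF2 in the DMSO, ATRA, Corin and combination lists, against the distance of its strongest summit from the MANE start in kb. A stem is a called region; the stems at +13.4 kb (16.6) and +110.2 kb (13.5) stand out in the ATRA panel, and those around +21.0 kb and the start are alike in the 4 panels.

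IRF3 and IRF7, the factors that switch on type I interferon genes, have short gene bodies in gene-rich windows. IRF3, on chromosome 19 (49659569 to 49665875, minus strand), shares its promoter region with BCL2L12, a neighbour read in the other direction, so the value belongs to both. It was 11.9 (11.2 to 12.6) in DMSO, 14.5 (13.7 to 15.2) in ATRA, 9.26 (8.63 to 9.92) in Corin and 11.6 (11.0 to 12.3) in the combination. After centring these came to −0.05, −0.28 and −0.06 against DMSO, with the sign of ATRA turned in the pileup ratio (0.22). Larger differences in the window lay in PRR12 and PRMT1. In PRR12, IRF3 +51.6 kb was 7.31 (6.45 to 8.27), 6.02 (4.91 to 7.30), 13.0 (12.0 to 14.1) and 6.28 (5.42 to 7.23). Corin stood alone above the other lists there, by 0.91 against DMSO (pileup ratio 1.36), and the combination was at −1.15 against Corin (−1.92). Nearby, IRF3 +53.5 kb was highest in the combination, at 7.25 (6.31 to 8.30) against 2.83 in DMSO, 5.05 in ATRA and 3.99 in Corin. Its ratio to DMSO was 1.33 (pileup ratio 1.03). In PRMT1, IRF3 −18.8 kb was 3.53 in DMSO, 5.04 in ATRA and 1.96 in the combination, and absent with Corin, with the combination at −0.87 to DMSO and −1.02 to ATRA (pileup ratios −1.28 and −0.94).

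IRF7, on chromosome 11 (612553 to 615983, minus strand), had the main promoter with the widest range of centred ratios in the family, though not by the pileup ratio, and the IRF5 MANE start described below ranged more widely. Its fold was 12.6 (12.0 to 13.3) in DMSO, 22.0 (21.0 to 23.0) in ATRA, 8.31 (7.85 to 8.80) in Corin and 10.9 (10.5 to 11.4) in the combination, with no overlap between any 2 intervals. ATRA was highest and Corin lowest, and the combination lay between Corin and DMSO. Centred, the ratios to DMSO were 0.47, −0.51 and −0.23, short of the 1.5-fold limit, and the combination stood at −0.67 against ATRA. The pileups were 1449, 1862, 1204 and 2042, and the pileup ratios were 0.26, −0.14 and 0.34 against DMSO and 0.14 for the combination against ATRA. The sign of both combination ratios therefore depends on the scaling, and that of ATRA and Corin against DMSO does not.

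Of 12500 coding genes with a main promoter in all 4 lists, those whose 3 ratios to DMSO lay nearest to IRF7 were SLC6A12, RETN and MYOM2, at Euclidean distances of 0.0412, 0.0755 and 0.113 in log2 units over the 3 ratios. RETN, for example, had folds of 8.40, 15.4, 5.63 and 7.34. Upstream of IRF7 the region at −12.8 kb, which the naming rule does not pick, had the same order of folds, with 4.79, 10.4, 3.55 and 4.03, on 136, 104, 83 and 64 reads, and its ATRA ratio to DMSO of 0.78 turned to −0.48 by pileup. IRF7 −46.9 kb, in DEAF1, was called in DMSO (5.65) and ATRA (8.20) alone, and IRF7 −9.5 kb, at a CDHR5 promoter, in DMSO (3.17) and Corin (2.39) alone. IRF7 +18.6 kb, in PHRF1, was among the lowest with the combination, at 2.27 against 4.28 in DMSO (−0.94, pileup ratio −1.07).

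**Figure D2:**
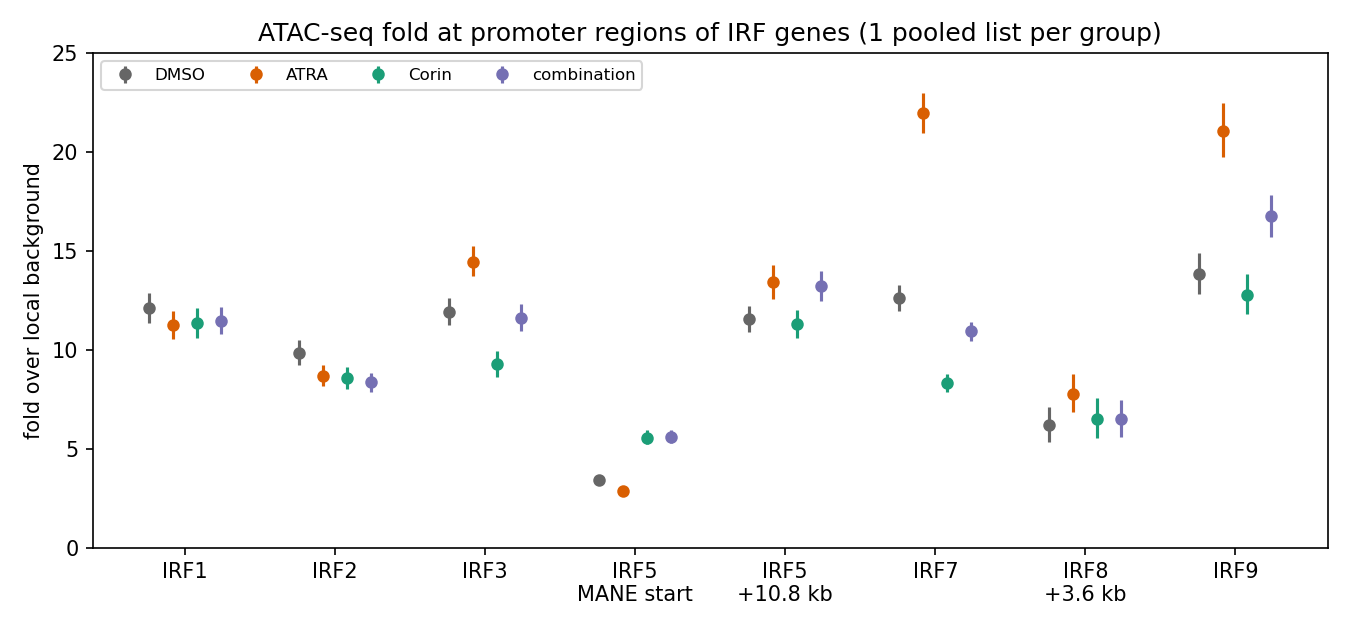
Fold over local background (vertical axis) at promoter regions of the IRF genes in the DMSO, ATRA, Corin and combination lists; points are the pooled list values and bars the exact 95% Poisson intervals of the pileup, which hold counting error only. IRF7 spans 8.31 to 22.0 and IRF1 11.2 to 12.1, and the IRF5 MANE start has its 2 Corin-containing lists above the other 2.

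IRF5, on chromosome 7 (128937457 to 128950038, plus strand), was the member whose MANE start differed from DMSO past the limit. The region over that start had a fold of 3.41 (3.16 to 3.67) in DMSO, 2.87 (2.63 to 3.13) in ATRA, 5.56 (5.22 to 5.92) in Corin and 5.59 (5.27 to 5.93) in the combination. Both lists with Corin were high and both without it low, and their intervals did not overlap. The centred ratios to DMSO were −0.58 (ATRA), 0.79 (Corin) and 0.69 (combination), and the combination was at 1.30 against ATRA and −0.09 against Corin. Each of these signs was the same in the pileup ratio (−0.51, 0.63, 0.59, 1.17 and −0.03), with 680, 512, 962 and 1143 reads at the summit. At the other starts of the gene the lists were nearer to each other. IRF5 +2.8 kb had folds of 7.79, 9.52, 6.92 and 8.75. A start near the end of the gene, IRF5 +10.8 kb, was the strongest in DMSO and so the main promoter by the rule, with 11.5, 13.4, 11.3 and 13.2. Its ratios were −0.12, 0.05 and 0.17, the last 2 turning to −0.08 and −0.18 by pileup.

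Away from its starts the IRF5 window had several regions that only some lists called. IRF5 −26.3 kb, at a promoter of KCP, was weak in DMSO (2.06) and Corin (1.68), 7.10 in ATRA and absent from the combination. Its ATRA ratio was 1.45, but only 0.42 by pileup, with 49 reads in DMSO and 71 in ATRA. The summits of the lists that called it lay up to 278 bp apart. IRF5 +25.6 kb, in TNPO3, had the highest Corin ratio of all shared IRF regions, 1.59 (pileup ratio 1.70), on 25 reads in DMSO, 76 in Corin and 42 in the combination. This region was not called with ATRA. Its DMSO peak (128963445 to 128963688) and combination peak (128962936 to 128963244) did not overlap. They were joined through the wider span of the Corin peaks, so these reads are not counts at the same site. IRF5 −34.5 kb was in the DMSO (2.52) and Corin (3.88) lists alone.

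IRF9, on chromosome 14 (24161234 to 24168043, plus strand), sits among 20 coding genes counting itself, and 10 of the 15 regions in its window lie at promoters of other genes. Its own promoter was 13.8 (12.8 to 14.9) in DMSO, 21.1 (19.7 to 22.5) in ATRA, 12.8 (11.8 to 13.8) in Corin and 16.7 (15.7 to 17.8) in the combination. ATRA was highest, the combination next, and the intervals of DMSO and Corin overlapped. The centred ratios of ATRA and the combination, 0.27 and 0.25, were the same sign by pileup (0.30 and 0.35), and that of Corin was −0.03 (0.01). At the other end of the gene, in an exon, IRF9 +6.4 kb was 3.74 in DMSO, 12.2 in ATRA, 2.63 in Corin and 5.86 in the combination. The ATRA ratio of 1.37 shrank to 0.41 by pileup and the combination ratio of 0.62 became −0.07. The background beneath that summit was 23.1 in DMSO and 9.48 in ATRA.

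IRF4, on chromosome 6 (391739 to 411443, plus strand), had no region at its promoter or in its gene body in any list. The nearest lay 2956 bp from the MANE start and was called in DMSO alone, at a fold of 2.25 on 30 reads. Its window still held 15 regions, 5 of them in every list. IRF4 −30.7 kb was 6.78 (5.51 to 8.27) in DMSO, 11.4 (9.39 to 13.6) in ATRA and 3.50 (2.69 to 4.49) in the combination, and absent with Corin. The combination was the lowest of the 3, at −0.98 against DMSO and −1.36 against ATRA (pileup ratios −0.83 and −0.91). IRF4 +40.4 kb had the lowest ATRA ratio of all shared IRF regions, −1.05 (−1.34). It was 3.17 in DMSO, 1.93 in ATRA and 4.10 in Corin, and was not called in the combination. The summits of the lists that called it lay up to 202 bp apart. IRF4 +43.1 kb was in DMSO (4.45) and ATRA (6.22) alone. None of the 9 regions of the window in the ATRA list was gained over DMSO (0.0%, against 23.3% over all regions).

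IRF8, on chromosome 16 (85899116 to 85922606, plus strand), had no region over its MANE start either, in any list. The nearest was 1458 bp away (IRF8 −1.6 kb), with folds of 6.41 (5.28 to 7.71), 5.58 (4.33 to 7.08), 4.32 (3.38 to 5.44) and 5.62 (4.54 to 6.88). Downstream, at an internal start, IRF8 +3.6 kb had 6.17, 7.76, 6.50 and 6.48, and IRF8 +4.7 kb 4.69, 6.64, 3.21 and 5.04. The centred ratios of IRF8 +3.6 kb lay near 0 (−0.00, 0.16 and 0.04), each turning sign by pileup (0.34, −0.09 and −0.10). The strongest region in the gene body outside promoters, IRF8 +6.4 kb, stayed between 2.92 and 3.75.

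Upstream of IRF8, IRF8 −16.5 kb (chr16:85882044-85882860) had a fold of 3.04 (2.21 to 4.10) in DMSO, 10.2 (8.32 to 12.3) in ATRA, 2.83 (2.03 to 3.84) in Corin and 6.90 (5.64 to 8.36) in the combination, on 41, 102, 39 and 102 reads. As at IRF2 −36.1 kb, the 2 lists with ATRA were the high ones. Centred ratios to DMSO were 1.41, −0.02 and 1.15 (pileup ratios 1.19, 0.06 and 1.14), and the combination was at 1.18 against Corin (1.09).

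IRF8 −10.1 kb (chr16:85888479-85889408) had the opposite order. Its fold was 12.0 (10.4 to 13.9) in DMSO, 7.32 (5.76 to 9.17) in ATRA, 17.0 (15.3 to 18.8) in Corin and 11.0 (9.37 to 12.8) in the combination, on 186, 73, 374 and 163 reads. ATRA was lowest and Corin highest, while the intervals of DMSO and the combination overlapped. Against DMSO the centred ratios were −1.05, 0.59 and −0.16, and by pileup −1.44, 1.13 and −0.35; centring within classes of strength put Corin at 0.53, short of the limit. The combination stood 0.92 above ATRA and at −0.73 against Corin (pileup ratios 1.16 and −1.47). Further upstream, IRF8 −18.8 kb, picked after its values were seen, was absent from DMSO and had 3.16 in ATRA, 4.81 in Corin and 6.09 in the combination. At the far end IRF8 +44.8 kb, also picked afterwards, was lowest in the combination, at 7.93 (6.76 to 9.26) against 12.1, 18.1 and 13.7. The combination was at −0.64 to DMSO, −0.85 to ATRA and −0.88 to Corin there (pileup ratios −1.48, −0.95 and −1.67).

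**Figure D3:**
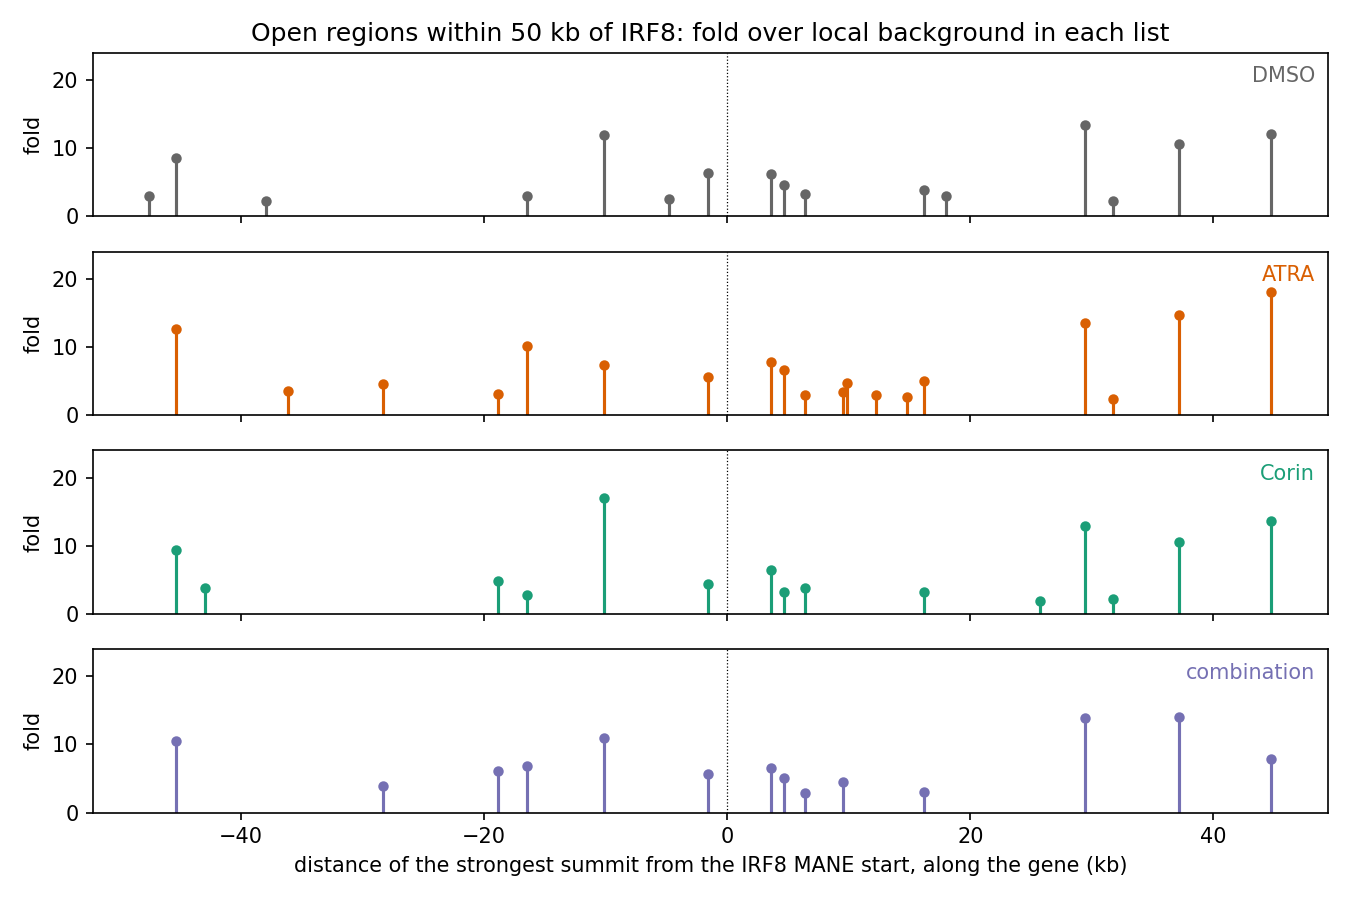
Fold over local background (vertical axis) of each region within 50 kb of IRF8 in the DMSO, ATRA, Corin and combination lists, against the distance of its strongest summit from the MANE start in kb. No stem stands at 0; the stem at −10.1 kb is 12.0, 7.32, 17.0 and 11.0 in the 4 panels and that at −16.5 kb 3.04, 10.2, 2.83 and 6.90.

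Counted over the 8 windows, the DMSO, ATRA, Corin and combination lists held 117, 116, 118 and 104 regions. Of the 161 regions 78 were in every list, which is 48.4%, against 41.1% of all regions, and 41 were in 1 list alone. These were 11 in DMSO (6.83% against 10.2% of all regions), 13 in ATRA (8.07% against 11.4%), 14 in Corin (8.7% against 8.05%) and 3 in the combination (1.86% against 3.93%). Regions called in the ATRA and combination lists only numbered 8 (4.97% against 3.2% of all), 4 at IRF1, 2 at IRF2 and 2 at IRF8. The reverse, DMSO and Corin only, numbered 10 (6.21% against 4.24%), 3 of them at IRF7. A Corin and combination call alone was seen at 2 regions (1.24% against 1.51%), IRF2 +73.9 kb and IRF3 +36.5 kb, with folds of 1.97 and 2.10 in Corin and 2.64 and 2.08 in the combination. DMSO and ATRA alone shared 4 (2.48% against 5.14%). In the regions of all 4 lists the summits lay a median of 19 bp apart, as in all such regions (19 bp). They lay within 50 bp in 78.2% of these IRF regions (80.5% of all). In the rest they lay further apart, for example by 646 bp at IRF2 +57.1 kb and 203 bp at IRF8 −16.5 kb. The folds compared in such regions belong to different summits.

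With ATRA against DMSO, 25 of 116 IRF regions were gained (21.6%, background over all regions 23.3%) and 26 of 117 lost (22.2%, background 25.4%). Among the 91 shared, 10 were higher (11.0%, background 16.6%) and 7 lower (7.69%, background 8.8%). The IRF windows were thus near or below the background in each count. The gained regions lay at IRF2 (8), IRF8 (7), IRF1 (6), IRF5 (2), IRF3 (1) and IRF7 (1). The lost ones lay at IRF5 (6), IRF7 (5), IRF3 (4), IRF8 (4), IRF9 (3), IRF2 (2) and IRF4 (2). With a −log10 q of at least 5, 17 were lost. Here and below the background shares are those of the main setting, and none is given for an alternative setting.

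With Corin against DMSO, 20 of 118 regions were gained (16.9%, background 17.8%) and 19 of 117 lost (16.2%, background 28.4%). Of 98 shared regions 7 were higher (7.14%, background 6.34%) and 2 lower (2.04%, background 10.8%), the 2 being IRF1 +62.8 kb and IRF1 −10.6 kb. Losses and lower values were fewer than in the background, a difference that was not tested. Centring within classes of strength gave 12 higher and 1 lower, and the pileup ratio 11 higher, with no background share given under these settings.

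With the combination against DMSO, 17 of 104 were gained (16.3%, background 16.6%) and 30 of 117 lost (25.6%, background 31.6%). Of 87 shared, 11 were higher (12.6%, background 8.26%) and 8 lower (9.2%, background 12.1%). With 50% cover of a region required, 7 were higher. The highest ratios were those of IRF2 −36.1 kb, IRF3 +53.5 kb and IRF8 −16.5 kb. These 3 comparisons share the DMSO list, so their values stand side by side and are not independent.

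On top of ATRA, the combination gained 10 of 104 regions (9.62%, background 15.4%) and lost 22 of 116 (19.0%, background 28.7%). Of 94 shared, 8 were higher (8.51%, background 7.18%) and 11 lower (11.7%, background 18.1%). On top of Corin it gained 15 of 104 (14.4%, background 20.4%) and lost 29 of 118 (24.6%, background 25.1%), and of 89 shared 10 were higher (11.2%, background 9.71%) and 5 lower (5.62%, background 8.97%). Some of these counts depended on the setting. Against ATRA, 5 were gained with a −log10 q of at least 5, 5 were higher with 50% cover, and 14 were higher and 7 lower with centring within classes of strength. Against Corin, 16 were lower by the pileup ratio.

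**Figure D4:**
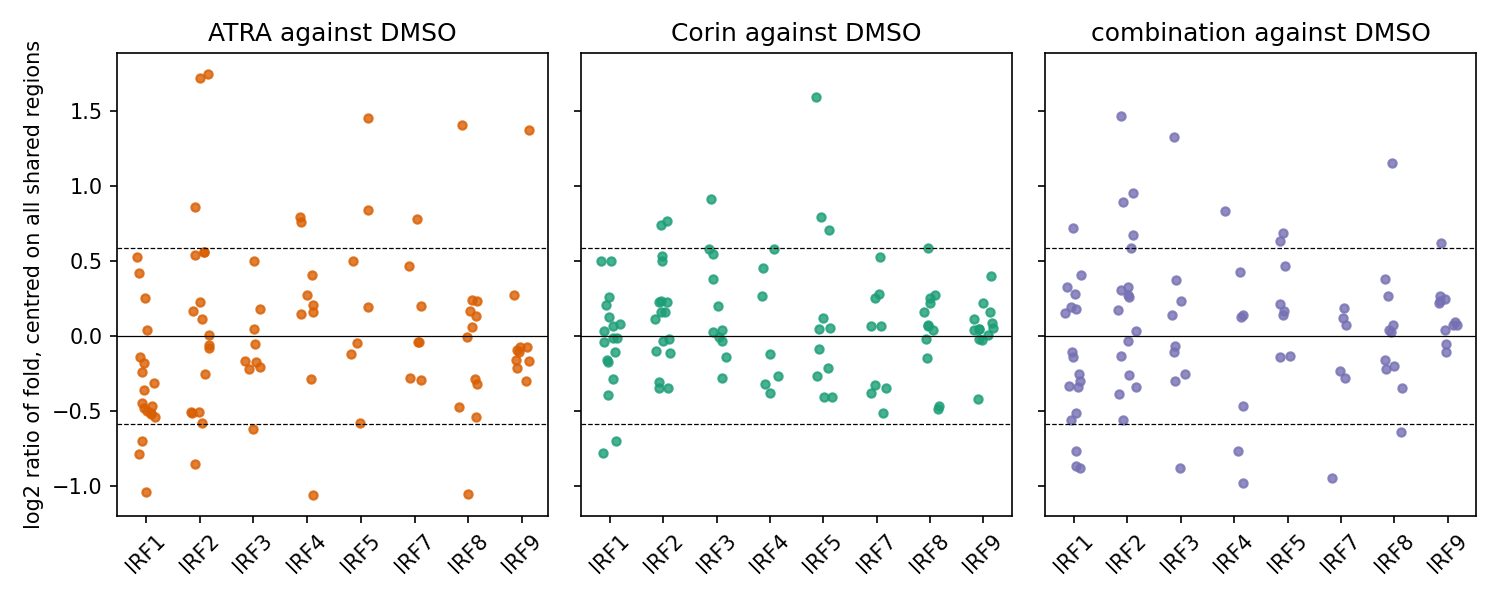
Centred log2 ratio of fold to DMSO (vertical axis) for each shared region of the 8 IRF windows, by gene, with ATRA, Corin and the combination in separate panels; dashed lines mark 1.5-fold and side-to-side scatter is only for legibility. Most points lie between the dashed lines, and the highest ATRA points are IRF2 −36.1 kb (1.75) and IRF2 +13.4 kb (1.72).

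The promoters of genes that act with these factors were set beside all coding promoters. Among the interferon receptor genes, IFNGR2, a chain of the interferon gamma receptor, was lower with Corin (1.72% of all coding promoters were), at 9.83, 16.4, 5.13 and 7.88 (−0.85), while IFNAR1, IFNAR2 and IFNGR1 passed the limit in none of the 3 comparisons with DMSO. TICAM1, the adaptor of Toll-like receptor 3, was the 1 of 9 activators of IRF3, IRF5 and IRF7 to pass the limit. It was higher with Corin (0.66) and with the combination (0.73), at 11.9, 17.6, 17.6 and 20.1. That is 11.1% of the activators in each, where 1.39% and 2.31% of all coding promoters were higher. The partners and co-repressors had an open promoter in 7 of 8, SPIB being the exception, and none passed the limit. SPI1, which encodes PU.1, was 8.22, 10.1, 8.49 and 10.8. The main promoters of the 7 IRF genes that have one also gave 0 calls in the 3 comparisons with DMSO. Over all coding promoters, 3.28% were higher and 3.8% lower with ATRA, 1.39% and 1.72% with Corin, and 2.31% and 2.04% with the combination. At such shares 0 calls among 7 promoters, here or among the partners, says little. For IRF5 the rule takes IRF5 +10.8 kb, while its MANE start passed the limit with Corin (0.79) and the combination (0.69).

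The 200 bp around the strongest summit of each IRF region was searched on both strands, beside the same windows of all 161291 regions. The core of the interferon-stimulated response element, GAAANNGAA, was in 13 of 161 IRF windows (8.07%, against 7.09% of all), 4 of them at IRF8. The ETS-IRF composite GGAANNGAA was in 12 (7.45% against 6.77%), 5 of them at IRF2, and the patterns differ by a letter so that no stretch matches both. No IRF window held both. GAS, TTCNNNGAA, was in 8 (4.97% against 5.13%), the printed IRF1 and IRF9 promoters among them. PU.1, GAGGAAGT, was in 10 (6.21% against 6.77%), AP-1, TGANTCA, in 22 (13.7% against 12.1%) and C/EBP, TTGCNNAA, in 18 (11.2% against 14.5%). NF-kB, GGGANNTCC, was in 6 (3.73% against 2.75%), and GFI1, AATCACNGC, and the RAR direct repeat with a spacer of 5 were in 0 (0.62% and 0.0911% of all). A match says only that these letters occur in the window.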

How the data were processed

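ATAC-seq peak lists of 8 U-937 samples (2 per group, grouped per the labels) were used, 1 list per group. The submitters' processing notes name cutadapt, Bowtie2, SAMtools, Picard, MACS2 and hg38, and the file names speak of a filtered naive overlap of replicates. Per the narrowPeak layout, the deposited fold values are the ratio of pileup to local background at the summit, and the authors' p and q columns are −log10 values. The deposited integer score of each peak was not analysed. No step between the reads and these lists was repeated, and sample depth is unknown. Since the lists are pooled, no test was run.

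Overlapping peaks (at least 1 bp) of the 4 lists were merged into regions, placed by GENCODE release 44 (promoter: within 1 kb of any start of the gene), and compared as described with the results, using Python 3.11.15, pandas 2.3.3, numpy 2.4.6 and scipy 1.17.1. Pileups were solved from fold and p and were whole numbers within 0.05 for 99.97% to 99.98% of peaks. The solver and the calls were tested on simulated data. The lowest −log10 p was 2.79 in DMSO and 2.0 in the other lists. Named regions are each gene's main promoter (the highest fold in DMSO) and strongest region in the gene body, the 3 strongest of each list-split pattern, and the 5 highest and 5 lowest ratios per treatment. A promoter sequence and the counts over a list of interferon signalling genes are not reported here. Members, gene lists and motifs were chosen with earlier results of these data known. Alternatives were a −log10 q of at least 5, 50% cover of a region, the fold of the peak with the best p, centring in 20 classes of strength, the pileup ratio, lists of equal length and, chosen after seeing the data, the p floor of the DMSO list.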

Additional observations from a re-analysis of the deposited data

How the results depend on the processing

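No paired analysis was possible because the 2 samples of each group were merged into 1 list, and for the same reason no sample could be left out. Of the 20 counts of called IRF regions, 8 moved by more than 1.5 times under some alternative. With a −log10 q of at least 5, 17 regions were lost with ATRA and 5 gained by the combination over ATRA. With 50% cover, 7 regions were higher with the combination against DMSO and 5 against ATRA. Centring within classes of strength gave 12 higher and 1 lower with Corin, and 14 higher and 7 lower for the combination against ATRA. The pileup ratio gave 11 higher with Corin and 16 lower for the combination against Corin. The cause was not tested, and no share over all regions is given under these settings. Equal list lengths, the fold of the best-p peak and the p floor of the DMSO list moved no count that far. Among 21 main promoter ratios, 13 moved beyond their counting error in the pileup ratio and none did under the other alternatives (20 ratios with 50% cover). The number of reads limits the weakest regions, which had 24, and a region absent from a list may lie below its calling limit.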
